A study of Rattus norvegicus with 30 samples.

Results

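The question here is whether 100 uM methapyrilene, an antihistamine, changed gene expression by different amounts after 48 h and after 24 h in cultured rat hepatocytes. The measure is the log2 effect of 100 uM against DMSO at 48 h minus the same effect at 24 h, computed for each probe set of a rat microarray that carries 1 gene symbol. It used 20 of the 30 arrays of the series, 5 in each of 4 groups: 100 uM methapyrilene for 48 h, DMSO for 48 h, 100 uM methapyrilene for 24 h and DMSO for 24 h. The other 10 arrays held cells given 3 uM. They entered the values set beside those of 100 uM at the end, and an alternative fit to all 30 arrays. Every group was made of frozen hepatocytes from male Sprague Dawley rats, bought from a supplier, thawed, plated on collagen under an overlay of Matrigel and dosed on day 3 of culture. The labels give the vehicle as 1% DMSO, while the protocol speaks of concentrated dosing solutions made in 1% DMSO. Each array is 1 culture well, so p-values measure the spread between wells of purchased cells, and with no other preparation named in the labels they do not cover the spread between rats.

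Methapyrilene was withdrawn as a drug because it causes liver cancer in rats, and it injures the liver of that species. Hepatocytes make bile acids, plasma proteins and urea and clear foreign compounds with cytochrome P450 and conjugation enzymes, and they lose part of this specialised expression with time in culture. A treatment given on one day can therefore be followed by changes that come early and fade, that build up, or that are partly set by the drift of the vehicle cultures, and only a comparison that holds all 4 groups separates these. A value below 0 means that the effect of 100 uM was lower at 48 h than at 24 h, whether a fall had deepened or a rise had shrunk, and a value above 0 means the opposite.

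The array medians lay between 361.68 and 432.88 signal units, and the trimmed mean was 1500.6 on each of the 20 arrays, the value to which the deposited signals had been scaled. The ratio of the 3 prime to the 5 prime beta-actin control probe set lay between 2.44 and 3.43. It differed between groups: in DMSO it was 2.44 to 2.79 at 48 h and 2.80 to 3.27 at 24 h. At 100 uM it was 2.48 to 3.43 at 48 h and 2.74 to 2.84 at 24 h. The same ratio for GAPDH was 1.024 to 1.070 at 100 uM and 1.084 to 1.129 in DMSO at 48 h. At 24 h it was 1.0745 to 1.137 at 100 uM and 1.072 to 1.1715 in DMSO. A fit with the beta-actin ratio as a covariate is given at the end. Arrays of 1 group correlated at 0.984 to 0.988 on average, and no 2 arrays held the same values. The cells carried the markers of hepatocytes: all 9 measured hepatocyte markers were at least 2-fold above the array medians, a level called bright here, and the sum of their signals was 363296 to 407944 at 100 uM and 398791 to 470051 in DMSO at 48 h, and 391098 to 489685 at 100 uM and 419412 to 518860.5 in DMSO at 24 h.

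The effect of 100 uM differed between the times in a small share of genes, and the most common pattern was a fall that was larger at 48 h. Of 20826 probe sets, 82 had a higher effect at 48 h (0.394%) and 138 a lower one (0.663%) at an adjusted p under 0.05 by limma, with 2182 at an unadjusted p under 0.05. With each gene represented by its brightest probe set, 70 of 14217 genes had a higher effect at 48 h (0.492%) and 122 a lower one (0.858%). Among the 7740 bright genes these counts were 67 (0.866%) and 120 (1.55%). For scale, 2064 genes were higher (14.5%) and 1507 lower (10.6%) at 100 uM than in DMSO at 48 h, and 2120 were higher (14.9%) and 1618 lower (11.4%) at 24 h.

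The 192 genes fell into 10 patterns according to which single-time effects passed the same threshold. The most common, with 55 genes, was a fall at both times that was larger at 48 h; a further 24 genes were lower at 48 h alone. In 27 genes a fall at both times was smaller at 48 h, and in 12 a fall was called at 24 h alone. Rises at both times were smaller at 48 h in 11 genes and larger in 8, while 27 genes were higher at 24 h alone and 17 at 48 h alone. Only 11 of these 192 genes had called effects of opposite sign, 5 lower at 48 h and higher at 24 h, and 6 the other way round. Since the same arrays enter the effects and their difference, these patterns describe the called genes and are no further test. All 5 called genes that were not bright (Fras1, Pttg1, Zbtb40, Alpi and Rgs14, named because they are the exceptions) had large differences on low signals; Fras1 read 2.38, 3.04, 1.4, 3.48 and 6.94 in DMSO at 48 h, and they are not described further.

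**Figure D1:**
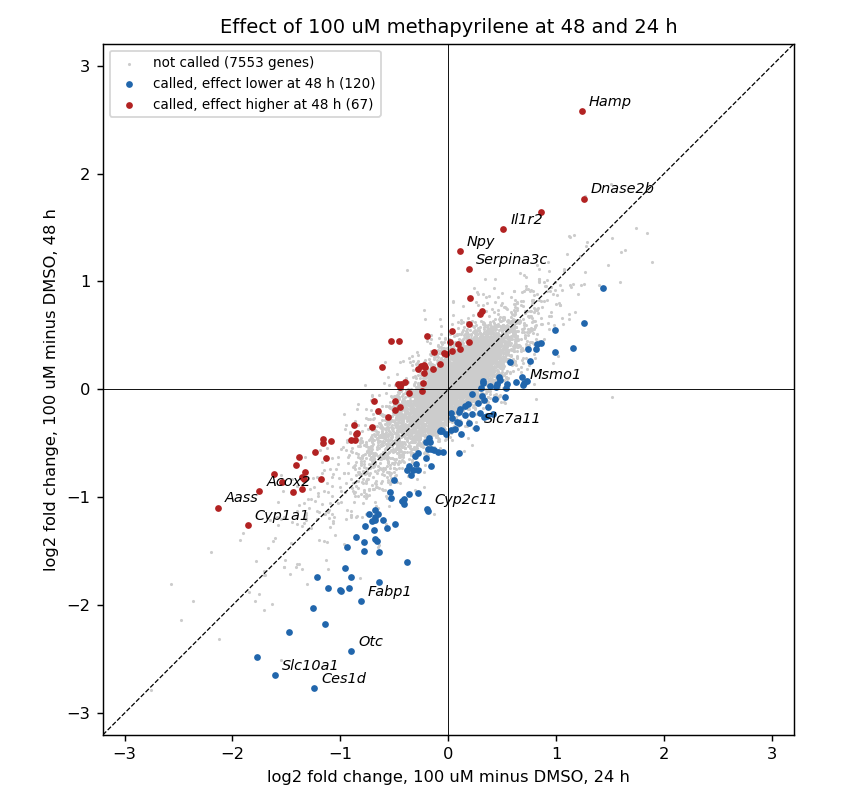
Each point is 1 bright gene; the vertical axis is its log2 fold change at 100 uM against DMSO at 48 h, the horizontal axis the same at 24 h, and the dashed line marks equal effects. Blue points are the 120 genes with a lower effect at 48 h, red points the 67 with a higher effect, and grey points the genes not called; most blue points lie in the lower left, where both effects are falls.

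The falls that deepened most included genes for urea synthesis, ester hydrolysis, fatty acid binding and bile salt uptake. Otc, which makes citrulline in the urea cycle, had signals of 698, 335, 479, 409 and 345 on the 5 arrays of 100 uM at 48 h, against 2726, 2224, 2356, 2531 and 1978 in DMSO, and of 1417, 1131, 909, 1358 and 772 at 100 uM at 24 h, against 2053, 1829.9, 2025, 2453 and 1851 in DMSO. The 100 uM arrays lay below all DMSO arrays at both times, and those of 48 h lay below those of 24 h. Its log2 effect was -2.43 at 48 h and -0.90 at 24 h, a difference of -1.53 ± 0.25 (SE; adjusted p = 0.00165 by limma).

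Ces1d, a carboxylesterase, differed as much, by -1.52 ± 0.17 (adjusted p = 2.48e-05 by limma). At 48 h its signals were 1045, 897, 963, 955 and 889.6 at 100 uM and 5915, 5491, 6170.1, 7166 and 7793 in DMSO; at 24 h they were 1567, 1715, 1845, 1815 and 1453 at 100 uM and 5760.1, 4256, 3411, 3533 and 3337 in DMSO. Both sides moved: with time the signal fell by 0.82 at 100 uM and rose by 0.70 in DMSO on the log2 scale. Fabp1, the liver fatty acid binding protein, read 2158, 1939, 2781, 2015 and 2194 at 100 uM and 9477, 7858, 8683, 8732 and 8189.6 in DMSO at 48 h. At 24 h Fabp1 had 4115, 4410.5, 4317, 4062 and 3435 at 100 uM and 7352, 7452, 6535, 7228 and 7085 in DMSO. In Fabp1, too, no 100 uM array overlapped a DMSO array at either time, and the difference was -1.15 ± 0.11 (adjusted p = 4.19e-06 by limma).

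Slc10a1 encodes NTCP, which takes bile salts up from the blood. Its signals at 48 h were 895, 909, 939.7, 846 and 743 at 100 uM and 5743, 4244, 5514, 5563 and 6183 in DMSO. At 24 h they were 1828, 2338, 1871, 1825 and 1851 at 100 uM and 7203, 7380.3, 5001, 5356 and 4978 in DMSO, so that a gene already well down at 24 h fell further, by 1.16 on the log2 scale between the 2 times at 100 uM. The difference between effects was -1.04 ± 0.16 (adjusted p = 0.0011 by limma). Gamt, which makes creatine, had the smallest adjusted p of all genes, 9.89e-08, and its wells differed little. Gamt read 5850.1, 5802, 5142, 5037 and 5409 at 100 uM and 19950.1, 18073, 19175, 20068 and 19927 in DMSO at 48 h. At 24 h Gamt had 10114, 8954, 9077, 9544 and 9819.9 at 100 uM and 19157, 18186, 17336, 18058 and 17246 in DMSO. Its effect was larger at the later time, -1.84 ± 0.05 at 48 h and -0.92 ± 0.05 at 24 h.

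Enzymes of drug metabolism were among the deepening falls. The list of other P450 enzymes and hydrolases leaves out the targets of the receptors AhR, CAR and PXR. Of its 32 measured genes 7 had a lower effect at 48 h, beside 0.858% of all genes and 1.55% of bright genes, and none a higher one. They were Ces1d, the steroid and drug hydroxylases Cyp2a1 (-1.03 ± 0.13), Cyp2c11 (-0.91 ± 0.12), Cyp2a2 (-0.86 ± 0.16), Cyp2d2 (-0.72 ± 0.08) and Cyp2d3 (-0.69 ± 0.15), and the deacetylase Aadac (-0.77 ± 0.15). The median effect of the list was -0.81 at 48 h and -0.64 at 24 h, and 15 of the 32 members had a difference above 0, so the list did not move as a whole; the median difference was -0.16, against 0.0028 over all genes. Cyp2c11, the main P450 of the male rat liver, had signals of 4365, 4195, 3278, 3643 and 3372 at 100 uM and 7118, 8136, 7238, 8874 and 9338 in DMSO at 48 h, below the vehicle on every array. At 24 h Cyp2c11 had 10197, 11178, 11561, 10734 and 9191 at 100 uM and 12219, 11822, 11649, 13439.8 and 11449 in DMSO, and the groups overlapped. Probe sets of the closely related Cyp2a and Cyp2d genes may share transcripts, so these members are not independent.

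Conjugation enzymes, which attach glucuronic acid, glutathione or methyl groups, gave 4 lower calls of 38, beside 0.858% of all genes and 1.55% of bright genes, and none higher: the glutathione transferase Gstt3 (-0.73 ± 0.12), the glucuronosyltransferases Ugt2b1 (-0.53 ± 0.12) and Ugt2b35 (-0.32 ± 0.08), and the nicotinamide methyltransferase Nnmt (-0.31 ± 0.06). When each of the 20 arrays was left out in turn, the call of Ugt2b1 was lost in 11 fits and that of Ugt2b35 in 10, and the list gave 1 call in the fit to all 30 arrays or with arrays centred on their medians. A further probe set annotated to Ugt2b, a family whose members are alike in sequence, differed by -0.94 ± 0.10 (adjusted p = 2.12e-05 by limma). Its signals at 48 h were 18295, 19276, 14498, 15056 and 15097 at 100 uM and 37841, 34136, 33730.2, 33371 and 40031 in DMSO, and at 24 h 26666, 32472, 30511, 30541 and 28939.8 at 100 uM and 36484, 32909.5, 32649, 34744 and 32864 in DMSO. The 100 uM wells lay below the DMSO wells at both times, by a small margin at 24 h. Of 17 genes of the xenobiotic receptors CAR and PXR and their targets, 3 had a lower effect at 48 h, beside 0.858% of all genes and 1.55% of bright genes. They were Ugt2b1 again and the steroid hydroxylases Cyp3a18 (-0.63 ± 0.11) and Cyp3a23-3a1 (-0.37 ± 0.08). The call of Cyp3a23-3a1 was lost with 5 of the 20 arrays left out in turn, and its list fell to 1 call in the fit to all 30 arrays or with arrays centred on their medians. The median difference of that list was 0.09, opposite in sign to its calls.

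Of 17 coagulation factors and their helpers 3 had a lower effect at 48 h, beside 0.858% of all genes and 1.55% of bright genes, and none a higher one, or 2 after quantile normalization. The 3 were the histidine-rich glycoprotein Hrg (-0.87 ± 0.09), Vkorc1, which recycles vitamin K (-0.55 ± 0.08), and factor IX, F9 (-0.45 ± 0.08). The lipoprotein genes Apoc4 (-0.61 ± 0.06), Apoc2 (-0.39 ± 0.06) and Lcat, which esterifies plasma cholesterol (-0.50 ± 0.09), were called too. Of 32 genes of albumin, plasma carriers and serpins 2 had a lower effect, beside 0.858% of all genes and 1.55% of bright genes. In this list 1 had a higher effect, beside 0.492% of all genes and 0.866% of bright genes. The lower ones were C8b, a part of the complement attack complex (-0.47 ± 0.08), and Fetub, a plasma protease inhibitor (-0.33 ± 0.06). The higher one was Serpina3c (0.92 ± 0.14). With arrays centred on their medians 1 lower call was left in this list. Slc27a5, which activates bile acids for conjugation, differed by -0.87 ± 0.12. Pemt, which methylates phosphatidylethanolamine to phosphatidylcholine, was called at 48 h alone, with signals of 436, 517, 712, 685 and 314 at 100 uM and 1518, 1445, 1613, 1735 and 1417 in DMSO at 48 h. At 24 h the Pemt groups overlapped, with 1277, 1424, 1632, 1156 and 695 at 100 uM and 1483, 1558, 1701, 1693 and 1335 in DMSO. Its difference of -1.22 ± 0.28 (adjusted p = 0.0288 by limma) had a wide error, and the call was lost with 9 of the 20 arrays left out in turn (adjusted p up to 0.0644). Dhrs7l1, a dehydrogenase family member, differed by -1.14 ± 0.25 (adjusted p = 0.0218 by limma).

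**Figure D2:**
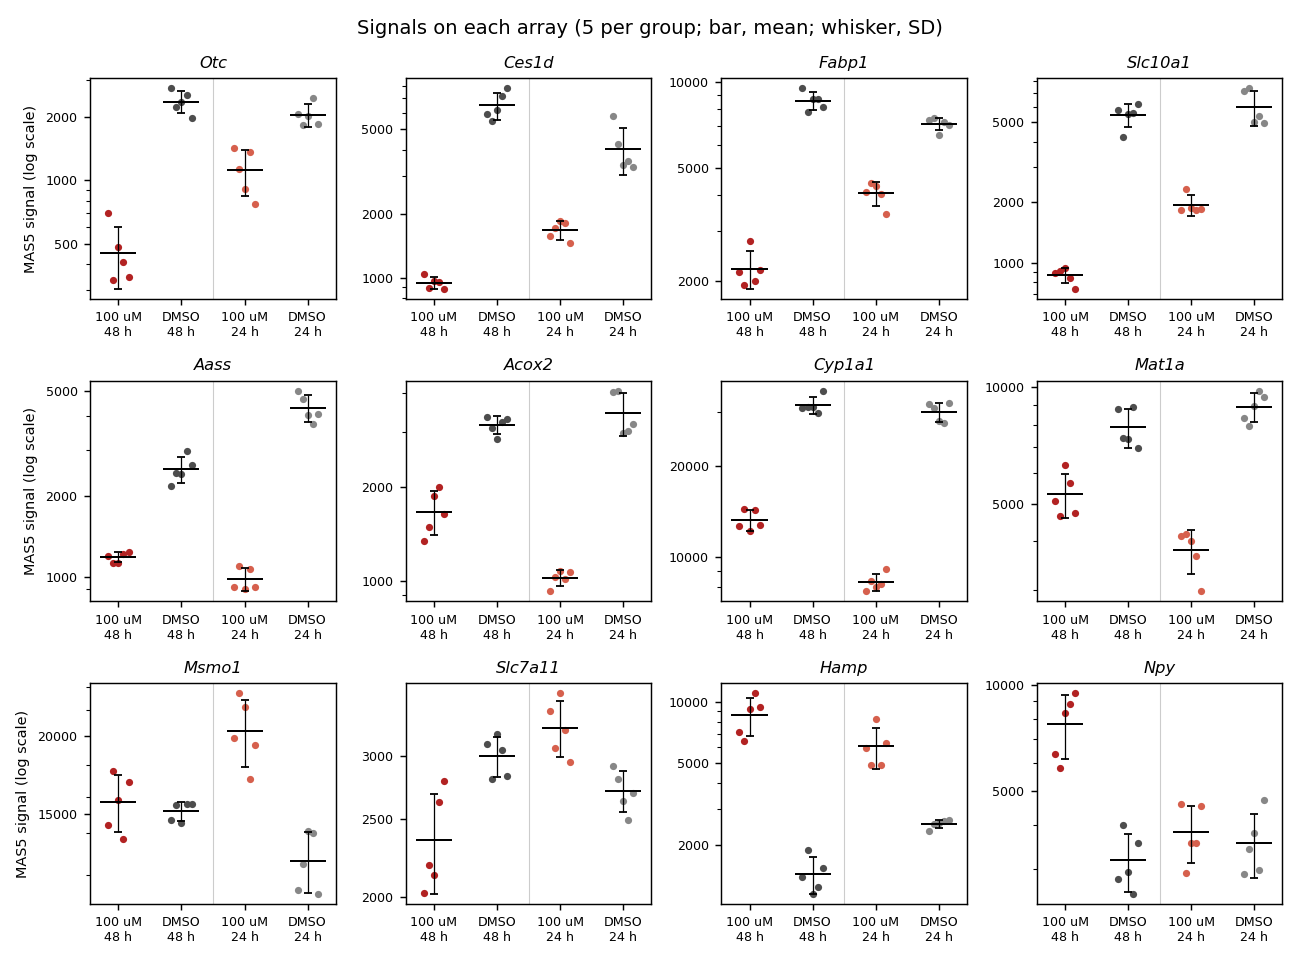
Deposited signal on a log scale for 12 genes on each of the 20 arrays; points are arrays, bars the group means and whiskers the SD, with 100 uM left of DMSO and 48 h left of 24 h. In the top row the 100 uM arrays of 48 h lie below those of 24 h, and in the middle row they lie above them. In the bottom row the rise of Msmo1 is gone at 48 h, and Slc7a11 goes from above DMSO at 24 h to below it at 48 h. The rise of Hamp is larger at 48 h, and Npy is raised at 48 h alone.

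Other falls were smaller at 48 h than at 24 h, 27 genes in all, with effects from -1.26 to -0.16 at 48 h and from -2.14 to -0.45 at 24 h. Aass, the first enzyme of lysine breakdown, had the largest such difference, 1.04 ± 0.12 (adjusted p = 4.58e-05 by limma). It read 1196, 1128, 1126, 1218 and 1236 at 100 uM and 2191, 2456, 2430.2, 2967 and 2638 in DMSO at 48 h. At 24 h Aass had 913, 1098, 896, 1069.7 and 914 at 100 uM and 4988, 4651, 4049.5, 3741 and 4089 in DMSO. Only the vehicle passed the test of a change with time: the log2 change was 0.28 at 100 uM (adjusted p = 0.0663 by limma) and -0.76 in DMSO (adjusted p = 6.46e-06). Acox2, which shortens the side chain of bile acids in peroxisomes, instead recovered at 100 uM, with signals of 1344, 1488, 1871, 2003 and 1641 at 100 uM and 3365, 3100.0, 2853, 3248 and 3316 in DMSO at 48 h. At 24 h Acox2 had 925, 1025, 1074, 1012 and 1068 at 100 uM and 4047, 4077, 2976, 3020.1 and 3202 in DMSO. All Acox2 arrays of 100 uM at 48 h lay above those of 24 h and still below the vehicle, and the difference was 0.81 ± 0.15 (adjusted p = 0.00419 by limma).

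Cyp1a1 and Cyp1a2, the P450 genes controlled by the aryl hydrocarbon receptor AhR, went opposite ways. Cyp1a1 read 12668, 14486, 12204, 14286 and 12752 at 100 uM and 30919.7, 31278, 31343, 29929 and 35272 in DMSO at 48 h. At 24 h Cyp1a1 had 7745, 8353, 8024, 8205 and 9147 at 100 uM and 31866, 30914, 28009, 27579 and 32243 in DMSO, so that its fall had shrunk by 48 h (0.60 ± 0.08, adjusted p = 0.000347 by limma). Cyp1a2 read 3877, 3700.2, 2929, 3915 and 4148 at 100 uM and 8837, 8907, 8361, 8965 and 10527 in DMSO at 48 h. At 24 h Cyp1a2 had 10639, 9783, 9502, 9992 and 11939.6 at 100 uM and 19077, 18968, 15829.5, 14466 and 15353 in DMSO. Its fall had deepened (-0.62 ± 0.13, adjusted p = 0.0147 by limma), on top of a fall of 0.87 with time in the vehicle, where the change of Cyp1a1 was 0.08. Of 9 measured genes of this list these were the only 2 called, beside 0.492% of all genes with a higher and 0.858% with a lower effect.

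The falls of the bicarbonate cotransporter Slc4a4 (0.83 ± 0.18) and the manganese exporter Slc30a10 (0.76 ± 0.15) were also smaller at 48 h. Slc4a4 read 8868, 8945, 8442, 9837 and 9740.5 at 100 uM and 15416, 16219, 15697, 14370.2 and 17110.4 in DMSO at 48 h. At 24 h Slc4a4 had 3083, 5017, 5287, 5624 and 6377 at 100 uM and 18526, 16962, 14459, 12612 and 13764 in DMSO. The wells of 100 uM at 48 h all exceeded those of 24 h, and the log2 change with time in the vehicle was 0.06. Mat1a, which makes S-adenosylmethionine in the adult liver, read 5082, 4647, 6301, 5661 and 4722 at 100 uM and 8797, 7379, 7336, 8854 and 6965 in DMSO at 48 h. At 24 h Mat1a had 4132, 4178, 4004, 3668 and 2974 at 100 uM and 8313, 7924, 8932, 9766 and 9402 in DMSO. Its fall shrank by 0.66 ± 0.14 (adjusted p = 0.0143 by limma). Falls also shrank in Gckr, the regulator of glucokinase (0.50 ± 0.10), the glycogen phosphorylase Pygl (0.28 ± 0.06) and Mttp, which loads lipid onto apolipoprotein B (0.43 ± 0.08).

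Falls called at 24 h alone included Slc25a15, which carries ornithine into mitochondria for the urea cycle. It read 11017, 9834, 10995, 12261 and 11309 at 100 uM and 11253, 11761, 10847, 11948 and 13929 in DMSO at 48 h. At 24 h Slc25a15 had 9473, 8089, 9069.8, 8879 and 9833 at 100 uM and 16419, 14779.6, 15447, 12955 and 13767 in DMSO. The groups overlapped at 48 h and not at 24 h, and the difference was 0.59 ± 0.10 (adjusted p = 0.00303 by limma). Of the 5 other probe sets of Slc25a15, 3 were called in the same direction. Both sides moved with time: at 100 uM all wells of 48 h lay above those of 24 h, and in DMSO most lay below. Hnf4a, a transcription factor that maintains hepatocyte expression, had a difference of 0.33 ± 0.07 (adjusted p = 0.0127 by limma), with mean signals of 6742 ± 376 at 100 uM and 6896 ± 414 in DMSO at 48 h, and 6744 ± 298 at 100 uM and 8693 ± 245 in DMSO at 24 h (SD, n = 5 each). A second bright probe set of Hnf4a had the opposite sign, and with the mean of its probe sets the difference was 0.12 (adjusted p = 0.731 by limma), so the call depends on the probe set. Btbd2, a BTB domain protein, had a difference of 0.82 ± 0.20 (adjusted p = 0.0375 by limma), but the call was lost with 13 of the 20 arrays left out in turn.

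Most rises among the genes of cholesterol synthesis were not called at 48 h, having been called at 24 h. When sterols are scarce the transcription factor SREBP2, working with NF-Y on CCAAT boxes, raises the enzymes of this pathway together. Of 21 measured genes of cholesterol synthesis and uptake, all bright, 6 had a lower effect at 48 h and none a higher one. The share with a lower effect was 0.858% of all genes and 1.55% of bright genes. The median effect of the list was -0.18 at 48 h and 0.19 at 24 h. At 48 h, 1 member was higher and 9 were lower at 100 uM than in DMSO, against 11 higher and 5 lower at 24 h; over all genes these shares were 14.5% and 10.6% at 48 h and 14.9% and 11.4% at 24 h. The 6 were Msmo1 (-0.65 ± 0.12), Mvd (-0.64 ± 0.15), Idi1 (-0.56 ± 0.09), Acat2 (-0.52 ± 0.10), Cyp51 (-0.49 ± 0.09) and Nsdhl (-0.38 ± 0.07), enzymes from the start of the mevalonate route (Acat2) to the removal of methyl groups from lanosterol (Cyp51, Msmo1, Nsdhl). The call of Mvd was lost with 10 of the 20 arrays left out in turn (adjusted p up to 0.0671).

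Msmo1 read 14449.9, 17631, 15808, 13701 and 16892 at 100 uM and 14705, 15547, 14545, 15569.5 and 15577 in DMSO at 48 h. At 24 h it read 19847, 23427, 22258, 17084 and 19365 at 100 uM and 11355, 12487, 14132, 14012 and 11205 in DMSO. The groups overlapped at 48 h and were apart at 24 h, and the log2 change with time was -0.38 at 100 uM (adjusted p = 0.00526 by limma) and 0.27 in DMSO (adjusted p = 0.0785). Idi1, which isomerises isopentenyl diphosphate, read 14083, 17204, 16676, 15088 and 17166 at 100 uM and 14759, 14834, 15532, 15389.5 and 15531 in DMSO at 48 h. At 24 h Idi1 had 17459.6, 20859, 20360.2, 18985 and 17582 at 100 uM and 11376, 12336, 12979, 13549 and 11304 in DMSO, with changes with time called at 100 uM (-0.25) and in DMSO (0.31) and a difference between effects that passed the test (adjusted p = 0.00133 by limma). Cyp51 kept a smaller rise, 0.27 ± 0.07 at 48 h and 0.76 ± 0.07 at 24 h. Across the list the median change with time was -0.20 at 100 uM and 0.18 in DMSO.

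The promoters of Msmo1 and Idi1 are shown because 14 of the 17 genes of this list with a RefSeq promoter, 82.4%, hold a CCAAT box in the 250 bases before the start, against 34.3% of 27457 RefSeq promoters of build GRCr8. Among the 6 members called, 4 hold one (66.7%), and Acat2 and Cyp51 hold none in this window. Another motif searched, the AhR core GCGTG, is held by 10 of the 17 (58.8%) and by all 6 called members. It occurs in 27.2% of all RefSeq promoters and in 41.0% of those of genes on the array, where CCAAT occurs in 35.1%. Capitals mark CCAAT or its reverse, ATTGG. The match is a description of the letters and says nothing of binding in these cells.
Msmo1, GRCr8 chr16:29746863-29747112, plus strand: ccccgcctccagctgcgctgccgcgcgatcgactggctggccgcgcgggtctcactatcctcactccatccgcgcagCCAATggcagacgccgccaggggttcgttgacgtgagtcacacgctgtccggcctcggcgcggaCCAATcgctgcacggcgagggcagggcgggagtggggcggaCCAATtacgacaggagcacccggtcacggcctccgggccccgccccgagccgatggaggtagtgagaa
Idi1, GRCr8 chr17:66547525-66547774, minus strand: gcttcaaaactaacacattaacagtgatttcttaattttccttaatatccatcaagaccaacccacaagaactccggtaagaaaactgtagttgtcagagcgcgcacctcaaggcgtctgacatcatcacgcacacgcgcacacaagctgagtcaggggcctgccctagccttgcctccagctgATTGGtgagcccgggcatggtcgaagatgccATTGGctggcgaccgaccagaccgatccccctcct
Msmo1 has 3 such boxes and Idi1 2. The sterol regulatory element core searched, CACCCCAC on either strand, occurs in 1 of the 17 promoters and in neither of these.

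Genes of the integrated stress response are the next list. The factor ATF4 is translated when amino acids are short or the endoplasmic reticulum is stressed, and raises genes for amino acid supply. Of 31 measured ATF4 and CHOP stress genes, 8 had a lower effect at 48 h, beside 0.858% of all genes and 1.55% of bright genes, and none a higher one, with a median effect of -0.15 at 48 h and 0.18 at 24 h. Atf4 itself (-0.28 ± 0.06) and Asns, which makes asparagine (-0.40 ± 0.07), were raised at 24 h alone. Mthfd2, a mitochondrial folate enzyme (-0.59 ± 0.13), was likewise raised at 24 h alone. The serine synthesis enzymes Phgdh (-0.41 ± 0.07) and Psat1 (-0.38 ± 0.07) were lower at 48 h alone, and Atf5, a related transcription factor (-0.37 ± 0.09), was lower at both times. The calls of Atf5 and Mthfd2 were lost with 10 and 5 of the 20 arrays left out in turn, and the list fell to 5 calls in the fit to all 30 arrays or with arrays centred on their medians. The call of Atf4 was kept with each array left out but lost under 5 of 33 alternatives. Its difference was then as small as -0.19, with adjusted p up to 0.327 by limma.

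The other 2 members changed sign. Slc7a11, the cystine importer that feeds glutathione synthesis, read 2024, 2192, 2132, 2627 and 2786 at 100 uM and 3099, 2805, 3191, 3047 and 2831 in DMSO at 48 h. At 24 h Slc7a11 had 3410.1, 3066, 3587, 3234 and 2943 at 100 uM and 2912, 2808, 2636, 2496 and 2695 in DMSO. It lay below the vehicle on every array at 48 h and above it on every array at 24 h (-0.62 ± 0.11, adjusted p = 0.00438 by limma). Nupr1, a small stress-induced chromatin protein, read 42780.5, 46179, 42640.2, 43095 and 42846 at 100 uM and 50270.3, 51732, 49471, 47206 and 54047 in DMSO at 48 h. At 24 h Nupr1 had 57899, 64027, 57990.3, 54088 and 59182 at 100 uM and 46987, 45319.9, 48658, 45435 and 52733 in DMSO, again with no overlap at either time (-0.51 ± 0.07, adjusted p = 0.000297 by limma). Of 25 amino acid transporters 2 were called lower, beside 0.858% of all genes: Slc7a11 again and the arginine importer Slc7a1 (-0.50 ± 0.11). In the fit to all 30 arrays or with arrays centred on their medians 1 was left. Among 22 aminoacyl-tRNA synthetases Nars1 (-0.39 ± 0.06) was the 1 called lower, beside the same share of all genes and 1.55% of bright genes. Of 31 NRF2 targets and genes of glutathione synthesis 3 were called, all lower, beside 0.858% of all genes and 1.55% of bright genes. They were Slc7a11, Gsta4 and the glutathione reductase Gsr (-0.30 ± 0.07), whose call was lost with 17 of the 20 arrays left out in turn. In this list 1 call was left in the fit to all 30 arrays or with arrays centred on their medians.

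**Figure D3:**
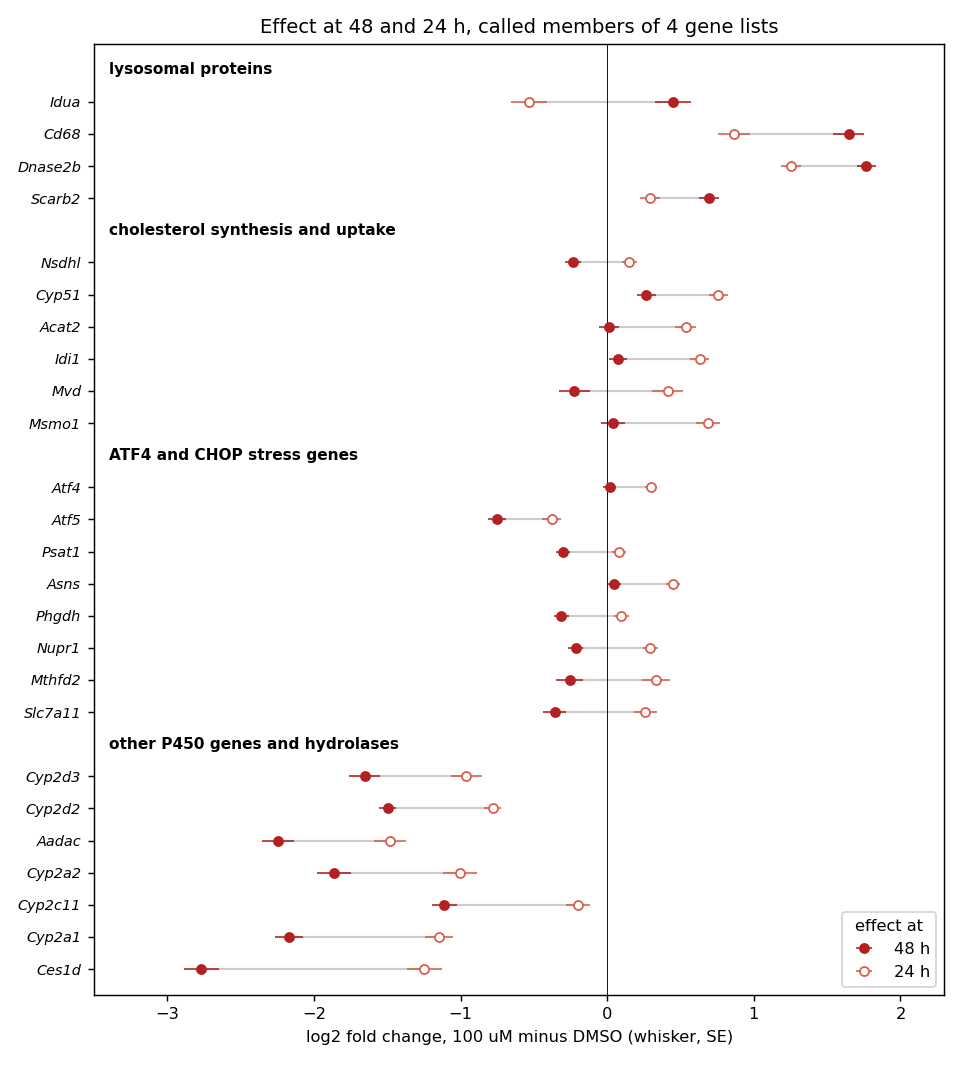
Log2 fold change at 100 uM against DMSO for the called members of 4 lists, with filled points for 48 h, open points for 24 h and whiskers for the SE. Lysosomal members moved to the right at 48 h, and the called members of the other 3 lists moved to the left.

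Among the bright genes that were called, the largest increase in effect was in Hamp, which encodes hepcidin. This hormone blocks iron export from cells and is raised by BMP signals from iron stores and by interleukin 6 through STAT3. Hamp read 7107, 6457, 9201, 11027 and 9437 at 100 uM and 1385, 1889, 1148, 1241 and 1544 in DMSO at 48 h. At 24 h it read 5944, 4936, 8300.3, 4925 and 6277 at 100 uM and 2342, 2517, 2555, 2618 and 2637 in DMSO. Every 100 uM array exceeded every DMSO array at both times, with mean signals of 8646 ± 1855 at 100 uM and 1442 ± 292 in DMSO at 48 h and 6076 ± 1381 at 100 uM and 2534 ± 118 in DMSO at 24 h (SD, n = 5 each). The log2 effect was 2.58 ± 0.14 at 48 h and 1.24 ± 0.14 at 24 h, a difference of 1.34 ± 0.20 (adjusted p = 0.000779 by limma). The vehicle gave the larger share: Hamp fell by 0.83 with time in DMSO and rose by 0.51 at 100 uM on the log2 scale.

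The Hamp promoter is shown because letters known as elements for both inputs occur in it: capitals mark a BMP responsive element core, GGCGCC, and a STAT element, TTCNNNGAA, the first from 129 to 124 and the second from 117 to 109 bases before the RefSeq start.
Hamp, GRCr8 chr1:95300272-95300521, minus strand: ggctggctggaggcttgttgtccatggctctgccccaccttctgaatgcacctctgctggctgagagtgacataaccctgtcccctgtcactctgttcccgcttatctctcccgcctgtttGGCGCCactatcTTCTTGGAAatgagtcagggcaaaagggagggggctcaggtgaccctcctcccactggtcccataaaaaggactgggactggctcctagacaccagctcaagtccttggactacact
GGCGCC occurs in 9.24% of all RefSeq promoters of that length and in 15.5% of the 11700 promoters of genes on the array; for TTCNNNGAA these shares are 7.52% and 6.13%. Each reads the same on both strands, and a match is no evidence that a factor acted in these cells.

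Npy, the gene for neuropeptide Y, was raised at 48 h alone. It read 6383, 5794, 8329.6, 8831 and 9462 at 100 uM and 2813, 4014, 2938, 2553 and 3564 in DMSO at 48 h. At 24 h Npy had 4584, 2916, 3556, 3553 and 4518 at 100 uM and 2902, 3423, 3797, 2981 and 4710.0 in DMSO. The groups were apart at 48 h and overlapped at 24 h, and a change with time was called at 100 uM alone: the difference was 1.18 ± 0.22 (adjusted p = 0.00516 by limma), of which 1.02 was the rise with time at 100 uM. Serpina3c, a serine protease inhibitor, was the reverse case, falling with time in both conditions. Its signals at 48 h were 9871, 9707, 10463, 11646 and 10944 at 100 uM and 5079, 5653, 5786, 4146 and 3929 in DMSO, and at 24 h 27324, 21151, 22563, 19467 and 20501 at 100 uM and 18262, 21209.6, 19994, 17846 and 19657 in DMSO. The log2 change with time was -1.07 at 100 uM and -1.99 in DMSO, which left a higher level at 100 uM at 48 h (0.92 ± 0.14, adjusted p = 0.000669 by limma). Serpina3 genes are near-identical copies, and signal may be shared between them. Il1r2, the decoy receptor of interleukin 1, read 3121, 2645, 4362, 4887 and 4306 at 100 uM and 1123, 1565, 1284, 1158 and 1684 in DMSO at 48 h. At 24 h its groups overlapped, with 4060.2, 2687, 3398, 3333 and 3496 at 100 uM and 1932, 2233, 2507, 2395 and 2864 in DMSO (0.98 ± 0.21, adjusted p = 0.0194 by limma).

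Of 36 lysosomal proteins 4 had a higher effect at 48 h, beside 0.492% of all genes and 0.866% of bright genes, and none a lower one. The median effect of the list was 0.21 at 48 h and 0.11 at 24 h. Cd68, a lysosomal membrane protein, read 2015, 2043, 2419.7, 2489 and 2573 at 100 uM and 679, 726, 920.1, 655 and 716 in DMSO at 48 h. At 24 h Cd68 had 1799, 1666, 1699.8, 1525 and 1362 at 100 uM and 832, 795, 809, 991 and 1001 in DMSO, apart at both times (0.78 ± 0.15, adjusted p = 0.00845 by limma). Dnase2b, an acid DNase, went the same way on top of a rise already present (1.77 ± 0.07 at 48 h and 1.25 ± 0.07 at 24 h; adjusted p of the difference 0.00462 by limma), and so did the membrane protein Scarb2 (0.40 ± 0.09), whose call was lost with 9 of the 20 arrays left out in turn. Idua, which degrades glycosaminoglycans, changed sign. It read 820.2, 838, 794, 929 and 921 at 100 uM and 701, 686, 515, 651 and 612 in DMSO at 48 h. At 24 h Idua had 454, 582, 471, 529 and 433 at 100 uM and 691, 641, 695, 709 and 831 in DMSO, with no overlap at either time (0.98 ± 0.17, adjusted p = 0.00354 by limma). The list gave 2 calls with arrays centred on their medians. Fam117b, a gene of little known function, also changed sign (0.45 ± 0.11 at 48 h and -0.45 ± 0.11 at 24 h).

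Cd68 is also a macrophage marker. Of 14 measured markers of Kupffer cells and leukocytes it was the 1 called, beside 0.492% of all genes with a higher effect. Only Cd68, Cd14 and Lyz2 were bright, and Clec4f, Adgre1, Csf1r and the rest of the list were below that level. The summed signal of the 14 was 14613 to 18786 at 100 uM and 20184 to 22792 in DMSO at 48 h, and 17833 to 19949 at 100 uM and 21147 to 25215 in DMSO at 24 h. This sum was lower at 100 uM at both times, but it weighs the bright members most. The median log2 effect of the 14 was 0.16 at 48 h, with 1 called higher and 1 lower, and -0.09 at 24 h, with 1 higher and 2 lower. In RNA from whole wells, fewer cells of a type and less RNA per cell cannot be told apart. Of the bile duct markers, with 8 measured and 2 bright, Epcam was called lower at 48 h (-0.31 ± 0.06), and the sum was 13019 to 13738 at 100 uM and 13909 to 15124 in DMSO at 48 h, and 12211 to 13708 at 100 uM and 11251 to 12389 in DMSO at 24 h. No marker of endothelial cells (9 measured, 1 bright) or of stellate cells and fibroblasts (13 measured, 2 bright) was called. The smallest p among bright ones belonged to Fcgr2b (0.27 ± 0.21) and Col3a1 (0.08 ± 0.20). The endothelial sum was 2569 to 3048 at 100 uM and 2246 to 2512 in DMSO at 48 h, and 2800 to 3606 at 100 uM and 2124 to 3553 in DMSO at 24 h. The stellate sums overlapped at both times. The part of other cell types in these differences was not tested.

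Several pathways held called genes in both directions, but few each way. Over all genes 0.492% had a higher and 0.858% a lower effect at 48 h. In the urea cycle, 10 measured genes, Otc had a lower effect at 48 h and Slc25a15 a higher one. In methionine and choline metabolism, 19 genes, Pemt and the glycine methyltransferase Gnmt (-0.52 ± 0.09) were lower and Mat1a higher; in the fit to all 30 arrays none of the 3 was called. Among 22 genes of glucose handling, the fructokinase Khk (-0.50 ± 0.10) was lower and Gckr and Pygl higher; with arrays centred on their medians 1 higher and no lower call was left. Of 27 bile acid genes Slc10a1 and Slc27a5 were lower and Acox2 higher, and of 20 apolipoprotein and VLDL genes Apoc4, Apoc2 and Lcat were lower and Mttp higher, the higher call being lost in the fit to all 30 arrays. The 32 acute phase and iron genes held Hamp and Il1r2 above and the pentraxins Crp (-0.74 ± 0.14) and Apcs (-0.39 ± 0.05) below. Amino acid breakdown had the most falls of any list by count (38 of 47 genes at 48 h and 41 at 24 h, beside 10.6% and 11.4% of all genes). As a share of members coagulation factors had more, with 16 of 17 lower at 48 h and 15 at 24 h. In amino acid breakdown 1 difference was called each way, Gnmt and Aass, and only Aass in the fit to all 30 arrays.

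Of the 37 lists of pathways and functions, 14 held no called gene. The p53 targets, with 12 of 23 higher at 48 h, beside 14.5% of all genes, and 13 at 24 h, beside 14.9%, had a median effect of 0.24 at 48 h and 0.24 at 24 h; the smallest p was that of the exonuclease Aen (-0.28 ± 0.08, adjusted p = 0.0772 by limma). Ribosome biogenesis factors were higher in 26 of 40 at 48 h and 31 at 24 h, beside the same shares, with median effects of 0.29 at 48 h and 0.40 at 24 h, and their smallest p was at Nop16 (-0.20). No call was made either among proteasome subunits (Psmd5, -0.25), mitochondrial import and ribosomal proteins (Tomm40, -0.35), oxidative phosphorylation subunits (Ndufb10, 0.13) and cell cycle genes (Pcna, -0.21). Among stress genes, the endoplasmic reticulum chaperones (Pdia6, -0.20), the cytosolic heat shock proteins (Hspb8, -0.23) and the immediate early genes with Myc (Max, -0.25) had none. The rest were fatty acid and triglyceride synthesis (Gpam, 0.44), glycolysis isoforms and hypoxia genes (Pfkfb3, 0.70), the growth hormone and IGF axis (Igfbp4, 0.62), TGF-beta signalling and matrix (Lamb3, 0.53) and the circadian clock (Rora, 0.41, but -0.38 with the mean of its probe sets); these genes had adjusted p between 0.0602 and 0.399 by limma. A p above the threshold does not show that an effect stayed the same.

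Of 28 actins, tubulins and intermediate filaments, which make up the cytoskeleton, 2 tubulins were called lower, beside 0.858% of all genes, and 1 with arrays centred on their medians: Tubb6 (0.42 ± 0.05 at 48 h and 0.82 ± 0.05 at 24 h) and Tubb4b (-0.35 ± 0.07).

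**Figure D4:**
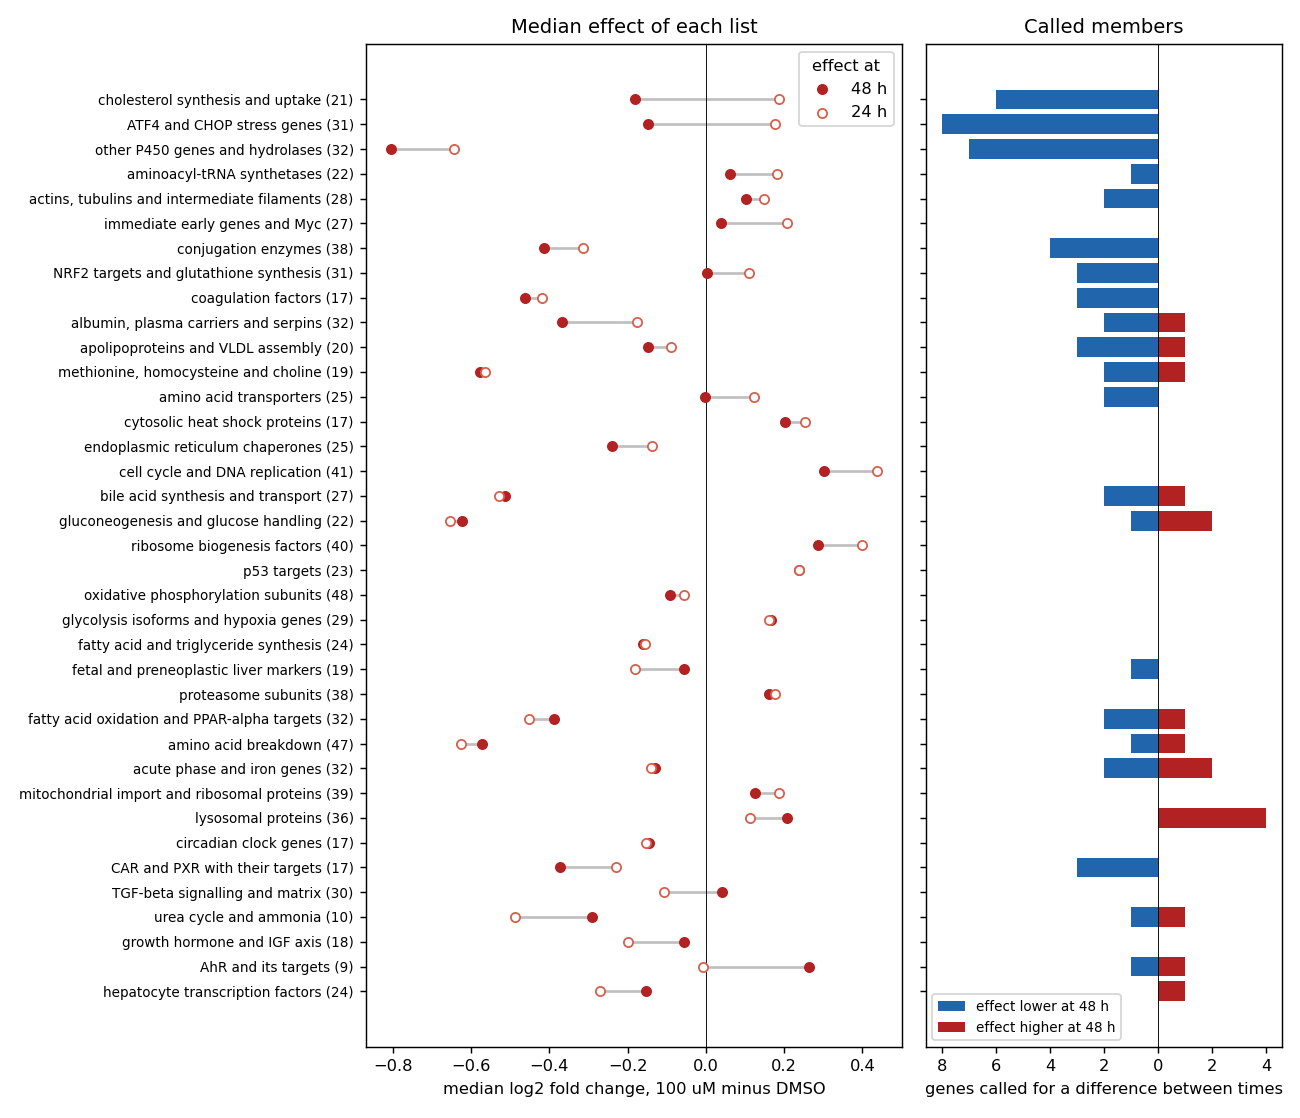
For each of 37 gene lists, with the number of measured genes in brackets, the left panel gives the median log2 fold change at 100 uM against DMSO at 48 h (filled) and 24 h (open), and the right panel the number of genes called for a lower (blue, left) or higher (red, right) effect at 48 h. The medians of cholesterol synthesis and ATF4 stress genes cross 0 between the times. Those of the AhR list, of TGF-beta signalling and matrix, and of amino acid transporters cross it too. P450 genes and hydrolases go further down, and lysosomal proteins further up.

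The 4 groups also show on which side a change with time was called. Between 48 h and 24 h, 532 genes were higher (3.74%) and 530 lower (3.73%) at 100 uM, and 273 were higher (1.92%) and 219 lower (1.54%) in DMSO. Among the 192 genes called for a difference, a change with time was called at 100 uM alone in 123, in DMSO alone in 36, in both in 24 and in neither in 9. A side that was not called may still have changed. Fabp1 counts as 100 uM alone, but all its DMSO wells of 48 h lay above those of 24 h (0.27, adjusted p = 0.0829 by limma). In deepening falls the change was mostly called in the treated wells. It was called at 100 uM alone in 41 of 55, as in Gamt (-0.80 at 100 uM and 0.11 in DMSO), Otc (-1.32 and 0.21) and Cyp2a1 (-0.90 and 0.13). In shrinking falls it was called at 100 uM alone in 19 of 27, as in Slc4a4 and Acox2. Of the 8 rises that grew, the change was called at 100 uM alone in 3, in DMSO alone in 3 and in both in 2. In 7 of the 27 genes raised at 24 h alone the change was called in DMSO alone; there the vehicle rose to meet the treated wells. Because the vehicle of 1 time enters both its drift and the effect, these counts split a difference into its parts and add no evidence for it.

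**Figure D5:**
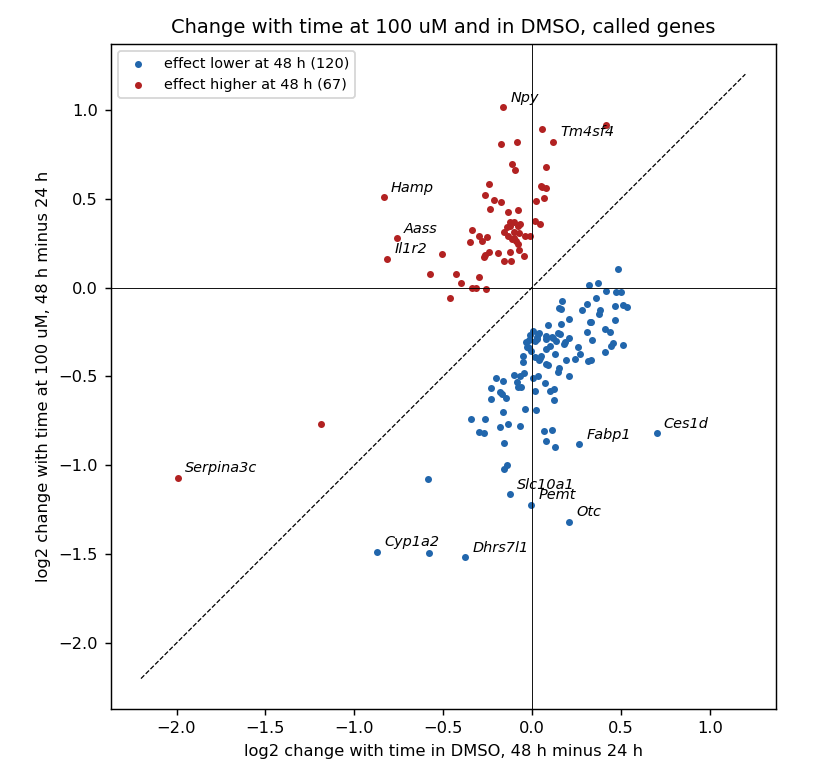
Each point is 1 of the 187 bright genes called for a difference; the horizontal axis is the log2 change with time in DMSO and the vertical axis the log2 change at 100 uM, both as 48 h minus 24 h, and the dashed line marks equal changes. Points on the vertical axis, such as Pemt, changed at 100 uM alone, and Serpina3c, at lower left, fell with time in both.

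At 3 uM no difference between times was called (0%) among 20826 probe sets by limma in a fit to all 30 arrays, with 2072 at an unadjusted p under 0.05. The 2 doses share their DMSO arrays, so their values are given side by side. For Hamp the difference was 0.31 ± 0.20 at 3 uM and 1.34 ± 0.20 at 100 uM; for Npy it was 0.54 ± 0.26 and 1.18 ± 0.22. For Otc it was -0.04 ± 0.26 at 3 uM, for Ces1d -0.20 ± 0.19 and for Msmo1 -0.12 ± 0.11. The log2 effect of 3 uM on Cyp1a2 was -0.69 at 48 h (adjusted p = 0.00115 by limma) and -0.46 at 24 h (adjusted p = 0.0146), and its difference between times was -0.23 ± 0.14.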

How the data were processed

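RNA from 5 wells of each group was hybridised to a rat Affymetrix array. Per the submitters' processing notes, the authors made the deposited intensity values with MAS5, version not given in the sources used here; each is the linear signal of a probe set, scaled to a common trimmed mean. MAS5 subtracts mismatch probes, so low signals scatter widely on the log2 scale.

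Log2 was taken of the signals of the 20 arrays of 100 uM and DMSO. Of 31099 probe sets, 57 were controls, 20826 had 1 gene symbol, 436 several and 9780 none in the platform annotation; the 20826 (14217 genes) entered a limma fit (limma 3.58.1, R 4.3.3; 1 mean per group, contrasts, eBayes with a variance trend, 16 residual degrees of freedom), two-sided, with Benjamini-Hochberg adjustment over all of them. A gene is its brightest probe set by mean log2 signal; bright means that the highest of 4 group means is at least 1 log2 unit above the mean array median. The number of arrays limits the precision. The fit was also run on simulated data as a self-test, whose outcome is not given here.

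Named genes are the 12 bright called genes with the largest differences each way, up to 2 called genes per list and, for lists with none, the bright gene with the smallest p; the 27 further called list members and dim genes were named after their values were seen. The members and the 42 lists were chosen with earlier results of these data known. Replicate numbers were given in accession order, and the labels do not say that they pair wells; each run of 6 array numbers holds every group once. Promoters are RefSeq's, build GRCr8, searched on both strands for CACCCCAC, CCAAT, CAAAGTCCA (HNF4), GTTAATNAT (HNF1), TGATGNAAT (ATF4), GGCGCC, TTCNNNGAA and GCGTG (AhR), found in 2.24%, 34.3%, 0.331%, 0.670%, 0.929%, 9.24%, 7.52% and 27.2% of 27457 promoters; overlaps between motifs were allowed. Alternatives were another fit, filter, scaling, pseudocount, variance model, array weights, runs of 6 array numbers as a block, an RNA integrity covariate, a stricter threshold and leaving out each array.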

Additional observations from a re-analysis of the deposited data

Results flagged for a closer look

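In 14 of 388 groups of 5 wells, of the genes named here, 1 well stood apart: its gap to the nearest other well was over 0.71 of the range of the group. Chance gives about 1 such group in 20. In 100 uM at 48 h these were Nupr1 (0.867, highest well), Dnase2b (0.751, lowest well), Nnmt (0.724, highest well), Fetub (0.776, lowest well), Tomm40 (0.754, lowest well), Dhrs7l1 (0.767, lowest well). In DMSO at 48 h these were Scarb2 (0.806, lowest well), Cyp1a1 (0.719, highest well), Acat2 (0.904, lowest well). In 100 uM at 24 h these were Slc10a1 (0.9, highest well), Aadac (0.776, lowest well), Rora (0.891, lowest well). In DMSO at 24 h these were Gpam (0.795, lowest well), Fetub (0.728, highest well).

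The test of the difference between the effect of 100 uM at 48 h and that at 24 h was passed by the 81 named genes that follow, each with its log2 difference, 48 h minus 24 h, from the limma fit with adjusted p under 0.05. Falls called at both times and larger at 48 h were Otc (-1.53), Ces1d (-1.52), Fabp1 (-1.15), Dhrs7l1 (-1.14), Slc10a1 (-1.04), Cyp2a1 (-1.03), Gamt (-0.91), Slc27a5 (-0.87), Hrg (-0.87), Cyp2a2 (-0.86), Aadac (-0.77), Crp (-0.74), Gstt3 (-0.73), Cyp2d2 (-0.72), Cyp2d3 (-0.69), Cyp3a18 (-0.63), Cyp1a2 (-0.62), Apoc4 (-0.61), Vkorc1 (-0.55), Gnmt (-0.52), Khk (-0.50), Lcat (-0.50), C8b (-0.47), F9 (-0.45), Apoc2 (-0.39), Atf5 (-0.37), Cyp3a23-3a1 (-0.37), Gsta4 (-0.35), Ugt2b35 (-0.32), Nnmt (-0.31). Falls called at both times and smaller at 48 h were Pygl (0.28), Mttp (0.43), Gckr (0.50), Cyp1a1 (0.60), Mat1a (0.66), Slc30a10 (0.76), Acox2 (0.81), Slc4a4 (0.83), Aass (1.04). Rises called at both times and larger at 48 h were Scarb2 (0.40), Dnase2b (0.51), Cd68 (0.78), Il1r2 (0.98), Hamp (1.34). Rises called at both times and smaller at 48 h were Cyp51 (-0.49), Tubb6 (-0.40). Called lower at 48 h alone were Alpi (-3.03), Pemt (-1.22), Ugt2b (-0.94), Cyp2c11 (-0.91), Ugt2b1 (-0.53), Slc7a1 (-0.50), Phgdh (-0.41), Apcs (-0.39), Psat1 (-0.38), Fetub (-0.33), Gsr (-0.30). The 100 uM wells of Ugt2b also lay below the DMSO wells at 24 h. Called higher at 48 h alone were Serpina3c (0.92), Npy (1.18), Zbtb40 (1.82), Pttg1 (2.44), Fras1 (3.76). Alpi, Zbtb40, Pttg1, Fras1 and Rgs14 are the genes that were not bright, and their large differences rest on low signals. Called lower at 24 h alone were Hnf4a (0.33), Slc25a15 (0.59), Btbd2 (0.82). Called higher at 24 h alone were Rgs14 (-1.24), Msmo1 (-0.65), Mvd (-0.64), Mthfd2 (-0.59), Idi1 (-0.56), Acat2 (-0.52), Asns (-0.40), Nars1 (-0.39), Tubb4b (-0.35), Atf4 (-0.28). Lower at 48 h and higher at 24 h were Slc7a11 (-0.62), Nupr1 (-0.51), Nsdhl (-0.38), Epcam (-0.31). Higher at 48 h and lower at 24 h were Fam117b (0.90), Idua (0.98).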

How the results depend on the processing

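With 82 probe sets higher and 138 lower at 48 h in the fit to 20 arrays, the counts were 48 and 90 in the fit to all 30 arrays, 31 and 75 with arrays centred on their medians, 27 and 56 without a variance trend, and 26 and 66 at an adjusted p under 0.01; with the beta-actin ratio as a covariate 44 were higher and 108 lower. The remaining settings stayed within 1.5 times of both counts, and leaving out each array gave 63 to 95 higher and 111 to 149 lower. Probe sets that changed with time numbered 647 higher and 623 lower at 100 uM, and 315 higher and 269 lower in DMSO; at an adjusted p under 0.01 these were 303, 352, 166 and 161. With median centring 349 were higher at 100 uM and 187 in DMSO, without a variance trend 195 were higher in DMSO, and with the covariate 175 were lower in DMSO. The share of higher calls was 37.3%, 40.2% after quantile normalization and 29.2% with median centring. No called named difference changed sign; of the uncalled ones, Rora was 0.41 and became -0.38 with the mean of its probe sets, and Col3a1 was 0.08 and became -0.012 without replicate 2 of 100 uM at 24 h. Of the 81 called named genes, 40 kept their call under every alternative run (33, or 30 for some dim genes); calls were lost by 34 without a variance trend, 25 with 30 arrays, 24 with median centring and 16 with the covariate. Leaving out 1 array ended the call of 13 genes in at least 1 fit. The cause of these losses was not tested. Low MAS5 signals limit what can be said of dim genes. With the runs of 6 array numbers, each holding every group once, as a block, 67 probe sets were higher and 137 lower, and 187 of the 220 calls were shared; the labels do not say that these runs pair the wells.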
